A study of Homo sapiens with 6 samples.

Results

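The 170 genes described here are the well-expressed long noncoding RNA genes that the arrays read. They were chosen by name and level: a probe set annotated to 1 gene whose symbol is a LINC or SNHG number, a microRNA host (MIR number HG), or ends in an antisense (-AS number) or divergent-transcript (-DT) suffix, with a mean log2 signal over the 6 arrays of at least 8. Each gene is represented by its brightest probe set. Of 19775 genes with a probe set annotated to them alone, 1865 matched the names at any level and 170 also matched the level. By name, 90 are antisense genes, 32 are divergent genes, 42 are LINC genes, 5 are small nucleolar RNA host genes (SNHG) and 1 is a microRNA host. RefSeq lists 168 as lncRNA and 1 as antisense RNA, and 1 had no entry there.

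Lentivirus delivered a hairpin that targets EZH2 (shEZH2), or a control hairpin without a target (shNTC), to KARPAS-422 and Pfeiffer, which are human lines from diffuse large B-cell lymphoma, a cancer of mature B lymphocytes. All cells received polybrene and puromycin selection, 1 hairpin sequence was used per arm, and RNA was read at 10 days on Affymetrix HG-U133 Plus 2.0 arrays. KARPAS-422 had 2 arrays with shEZH2 and 2 with shNTC, and Pfeiffer had 1 with shEZH2 and 1 with shNTC. The titles call the KARPAS-422 arrays biological replicates but do not tell of separate cultures or infections, so the p-values cover the spread among these arrays alone. EZH2 is the methyltransferase subunit of Polycomb repressive complex 2, which places repressive marks on histone H3. Levels are log2 MAS5 signals, and a difference is shEZH2 minus shNTC in log2 units. A gene is called where limma's Benjamini-Hochberg adjusted p over 13036 genes is under 0.05, and the p given for a single gene is this adjusted p.

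Long noncoding RNAs are transcripts without a long open reading frame. An antisense gene is transcribed from the strand opposite a coding gene and overlaps it or lies beside it, and a divergent gene starts next to a coding gene's promoter and runs the other way. LINC genes lie between coding genes, SNHG genes carry small nucleolar RNAs in their introns, and a microRNA host gene carries a microRNA hairpin in its transcript.

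EZH2 itself was at 10.52 and 10.55 in KARPAS-422 shEZH2, against 11.71 and 11.57 in shNTC, a difference of -1.11 ± 0.10 (SE, adjusted p = 0.000773). It was at 10.23 in Pfeiffer shEZH2 and 11.65 in shNTC, a difference of -1.41. All 6 arrays had the same 2% trimmed mean of 500 on the linear scale. The 5 B cell markers reported here all had means above 6.205, the overall median of the table, with log2 of their summed linear signal between 15.0 and 15.3 on every array. Of the other markers, 4 of 4 myeloid genes had means below that median, CD3D was bright in KARPAS-422 (10.53 to 11.43), and CD8A (13.49 to 13.61) and EPCAM (12.98 to 13.34) were bright in Pfeiffer. The T and NK genes CD2 (4.36 to 5.89) and NKG7 (0.90 to 3.44) were below it on every array, and CD3E was near it (5.89 to 6.76). COL1A1 was between 8.28 and 8.87 and COL1A2 between 2.99 and 6.31 over all arrays. KRT18 was at 8.54 and 8.67 in Pfeiffer and dimmer in KARPAS-422. CD3D was also lower with shEZH2 in KARPAS-422 (-0.77, adjusted p = 0.00943), but was not called without the first (adjusted p = 0.0832) or the second shEZH2 array (0.0710). In bulk RNA, fewer cells of a type and less RNA per cell cannot be told apart. The log2 difference between the 3′ and 5′ ACTB control probe sets was 0.138 and 0.175 in KARPAS-422 shEZH2, against 0.0593 and 0.083 in shNTC. For GAPDH it was -0.169 and -0.241 in shEZH2, against -0.182 and -0.158 in shNTC, so the arms stood apart for ACTB and overlapped for GAPDH. Their part in the results was not tested.

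Means of the 170 genes ran between 8.00 and 12.18, with a median of 8.90 and quartiles of 8.44 and 9.60, and 31 were at 10 or higher. These levels chose the genes. A probe set's brightness also depends on its probes, so levels of different genes do not rank their transcripts. Just inside the level were ENO1-AS1 and HMMR-AS1 (8.01 each) and PPP3CB-AS1 (8.00), and just outside were LINC01278 (7.99), LINC02615 (7.94) and ZNF436-AS1 (7.93). All 170 passed the filter on dim probe sets, as their level ensured, and 163 lay above the overall median on all 6 arrays. In 74 genes the whole range over the 6 arrays was under 1 log2 unit.

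With EZH2 knocked down in KARPAS-422, long noncoding RNA genes moved mostly upward: 50 of the 170 rose and 6 fell, and 114 did not pass the test. That is 29.4% higher, against 13.1% of all genes tested, and 3.53% lower, against 12.3%. Among the 8273 other genes whose mean was also 8 or higher, 15% were higher and 18.1% lower. The median difference was 0.23 over the 170 genes and -0.02 over all genes tested, and 116 of the 170 (68.2%) had a difference above 0, against 48.4% of all genes. The median over the 170 was 0.09 with quantile normalization, when that over all genes was -0.07, and 0.13 with cyclic loess, when that was -0.03. Differences of at least 1 log2 unit were called upward in 21 genes (12.4%, against 5.16%) and downward in 2 (1.18%, against 0.905%). Both shEZH2 arrays lay above both shNTC arrays in 89 genes (52.4%, against 31.8%) and below both in 28 (16.5%, against 33.9%). A call favours genes whose arms do not overlap, so arms that stand apart in a called gene are a description only. The median of the 170 genes was 9.23 and 9.29 on the shEZH2 arrays, against 8.97 and 8.92 on the shNTC arrays. The median of all genes tested was also higher on the shEZH2 arrays, at 9.35 and 9.32, against 9.14 and 9.18 on the shNTC arrays. Gene by gene, though, the median difference over all genes tested was -0.02, so the higher array medians are not a rise shared by all genes.

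**Figure D1:**
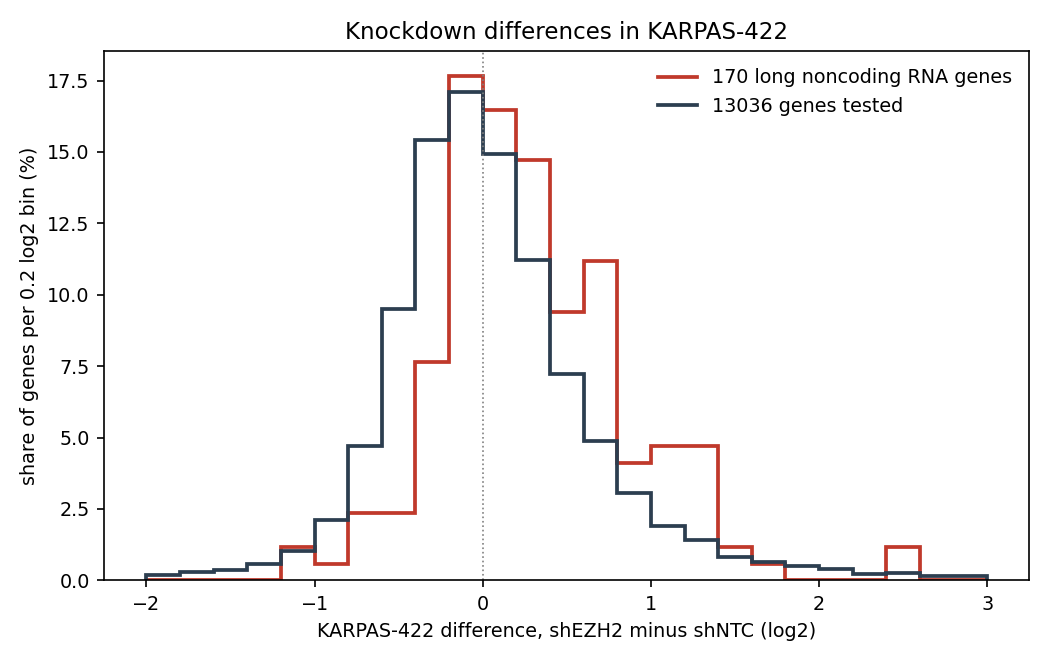
Distribution of the KARPAS-422 difference, shEZH2 minus shNTC in log2 units (horizontal axis, bins of 0.2), as the percent of genes in each set (vertical axis), for the 170 long noncoding RNA genes and for all 13036 genes tested. The 170 genes lie to the right of all genes, with medians of 0.23 and -0.02; 118 tested genes beyond the drawn range are not shown.

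Of the 56 calls, 35 of the 50 upward and all 6 downward were lost when at least 1 of the 4 KARPAS-422 arrays was left out. The counts also depend on how the spread and the arrays are treated. Without the limma intensity trend, 18 genes were higher (4.5% of all genes) and 1 lower (1.03%). Leaving out the first shEZH2 array gave 20 higher and 0 lower, with 4.13% and 4.12% of all genes, and leaving out the second gave 18 and 1, with 4.18% and 3.21%. Quantile normalization gave 36 higher and 10 lower, against 11.3% and 12.2% of all genes. The calls of 12 genes held under each of the 16 alternatives, or of the 15 that could read their probe set: LINC01215, FUT8-AS1, ANKRD13C-DT, AP1G2-AS1, TAPT1-AS1, LINC01410, GABPB1-AS1, TSPOAP1-AS1, LINC01000, LINC01003, ZBED5-AS1 and PSMA3-AS1.

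By name, 28 antisense genes rose and 2 fell (median difference over the 90, 0.23). Among the 42 LINC genes 14 rose and 3 fell (median 0.24), and among the 32 divergent genes 6 rose and 1 fell (median 0.17). The microRNA host rose, and 1 of the 5 SNHG genes rose (median over the 5, -0.11). Beside these counts, 13.1% of all genes tested rose and 12.3% fell, and 15% and 18.1% of the other genes with a mean of 8 or higher. The differences between these classes were not tested.

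LINC01215, an intergenic gene on chromosome 3, showed the largest difference of the 170. It was at 10.35 and 10.00 in KARPAS-422 shEZH2, against 7.98 and 7.43 in shNTC, a difference of 2.47 ± 0.22 (SE, adjusted p = 0.00074), or 5.55-fold. It was at 9.77 in Pfeiffer shEZH2 and 8.14 in shNTC, a difference of 1.63, also the largest of the 170 in that line. Every shEZH2 array of either line lay above every shNTC array. Its RefSeq promoter, 250 bases before to 50 after the start (GRCh38.p14, chr3:108125571-108125870, plus strand), is printed because this gene carries the largest difference; it holds only 3 CpG dinucleotides, with an observed-to-expected ratio of 0.144. Of the 137 genes with a promoter in the RefSeq table, 102 (74.5%) had a ratio of at least 0.6, against 79.1% of tested genes and 49% of all promoters.
LINC01215: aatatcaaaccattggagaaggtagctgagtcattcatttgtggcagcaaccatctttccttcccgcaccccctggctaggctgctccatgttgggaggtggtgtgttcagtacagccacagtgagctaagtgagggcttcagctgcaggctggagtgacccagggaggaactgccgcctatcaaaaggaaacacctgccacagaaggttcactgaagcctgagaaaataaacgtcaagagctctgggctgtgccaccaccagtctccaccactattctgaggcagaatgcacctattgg

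The other intergenic genes with differences above 1 had smaller differences. LINC01410 was at 9.90 and 9.78 in KARPAS-422 shEZH2, against 8.56 and 8.51 in shNTC, a difference of 1.31 ± 0.15 (SE, adjusted p = 0.00197). LINC01000 was at 10.89 and 10.69 in KARPAS-422 shEZH2, against 9.71 and 9.57 in shNTC (1.14, adjusted p = 0.00151). LINC01003 was at 11.16 and 11.19 in KARPAS-422 shEZH2, against 10.02 and 10.28 in shNTC (1.02, adjusted p = 0.00225). In all 3 the arms stood apart by more than either arm's own spread. In Pfeiffer, LINC01410 again differed by 1.04, LINC01003 by 0.36 and LINC01000 by 0.09, from 1 array per arm. LINC00537 differed by 1.31 ± 0.16 (SE, adjusted p = 0.00221) on its brightest probe set, but the mean of its kept probe sets gave 0.27 (adjusted p = 0.268), since they did not share a sign. LINC00205 (1.05) and LINC01004 (1.01) also rose by more than 1 log2 unit, but neither was called without the first shEZH2 array (adjusted p = 0.0648 and 0.0748) or the second (0.0558 and 0.112). The remaining LINC genes that rose were LINC00685, LINC01857, LINC01095, LINC00528, LINC00847, LINC00487 and LINC00342, with differences between 0.66 and 0.82. Each of these calls was lost when at least 1 KARPAS-422 array was left out. LINC01857 was near or below the overall median on the KARPAS-422 arrays, and differed by 0.36 (adjusted p = 0.101) with 64 added to the linear values. The mean of the kept probe sets of LINC00342 differed by 0.60 (adjusted p = 0.0863).

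FUT8-AS1 had nearly as large a difference as LINC01215. It is named after FUT8, the enzyme that adds core fucose to N-glycans. The antisense gene was at 9.27 and 9.44 in KARPAS-422 shEZH2, against 6.66 and 7.19 in shNTC, a difference of 2.43 ± 0.20 (SE, adjusted p = 0.000583), or 5.39-fold. In Pfeiffer it was bright in both arms, at 10.49 with shEZH2 and 9.93 with shNTC. The KARPAS-422 arms did not overlap, and all 4 of those arrays lay below both Pfeiffer arrays. Its other kept probe set differed by only 0.11 in KARPAS-422, so the size rests on 1 probe set. FUT8 itself was higher too, at 10.52 and 10.42 in shEZH2, against 9.60 and 9.73 in shNTC, a difference of 0.80 (adjusted p = 0.00313).

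ANKRD13C-DT starts beside ANKRD13C, which encodes an ankyrin-repeat protein of the endoplasmic reticulum. It was at 10.01 and 9.63 in KARPAS-422 shEZH2, against 8.32 and 8.09 in shNTC, a difference of 1.62 ± 0.18 (SE, adjusted p = 0.00164), and at 9.38 in Pfeiffer shEZH2 and 9.08 in shNTC. The KARPAS-422 arms were apart by more than 1 log2 unit, while ANKRD13C differed by -0.08 (adjusted p = 0.677). Its promoter (GRCh38.p14, chr1:70354561-70354860, plus strand) is printed for contrast with that of LINC01215, since it has 28 CpG dinucleotides and an observed-to-expected ratio of 0.928.
ANKRD13C-DT: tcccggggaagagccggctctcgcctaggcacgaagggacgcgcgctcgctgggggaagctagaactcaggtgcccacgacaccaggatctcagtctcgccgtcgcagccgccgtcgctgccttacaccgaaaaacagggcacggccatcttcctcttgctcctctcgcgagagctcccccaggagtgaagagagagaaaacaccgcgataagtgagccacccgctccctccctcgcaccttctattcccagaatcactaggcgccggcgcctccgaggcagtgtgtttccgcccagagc

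A further 3 antisense genes rose by more than 1 log2 unit. AP1G2-AS1, named after a subunit of the AP-1 clathrin adaptor, was at 9.61 and 9.39 in KARPAS-422 shEZH2, against 8.00 and 7.88 in shNTC (1.56, adjusted p = 0.00195), with 0.16 in Pfeiffer. SCAMP1-AS1, named after a secretory carrier membrane protein, was at 9.72 and 9.80 in KARPAS-422 shEZH2, against 8.72 and 8.06 in shNTC (1.37, adjusted p = 0.00603). SLC9A3-AS1, named after a sodium-hydrogen exchanger, was at 9.80 and 9.56 in KARPAS-422 shEZH2, against 8.30 and 8.51 in shNTC (1.27, adjusted p = 0.00407). In KARPAS-422 both shEZH2 arrays lay above both shNTC arrays in each. Without the first shEZH2 array the adjusted p was 0.0602 for SCAMP1-AS1 and 0.0573 for SLC9A3-AS1, and without the second it was 0.0675 for SCAMP1-AS1.

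GABPB1-AS1, named after a subunit of the ETS-family factor GABP, was at 11.51 and 11.42 in KARPAS-422 shEZH2, against 10.34 and 10.09 in shNTC, a difference of 1.26 ± 0.12 (SE, adjusted p = 0.00091), against 0.22 in Pfeiffer. CCDC18-AS1, named after a coiled-coil protein, was at 11.44 and 10.99 in KARPAS-422 shEZH2, against 9.98 and 9.55 in shNTC, a difference of 1.45 ± 0.19 (SE, adjusted p = 0.00323), and at 10.53 in Pfeiffer shEZH2 and 9.44 in shNTC. TSPOAP1-AS1, named after a protein that binds the mitochondrial translocator protein TSPO, was at 10.09 and 9.99 in KARPAS-422 shEZH2, against 8.86 and 8.77 in shNTC (1.23, adjusted p = 0.00132). The arms stood apart in all 3, and CCDC18-AS1 and TSPOAP1-AS1 were also higher with shEZH2 in Pfeiffer, by 1.10 and 0.80. NINJ2-AS1 (1.20), TRAM2-AS1 (1.07) and CHKB-DT (1.13) also rose by more than 1 log2 unit, but TRAM2-AS1 differed by -0.34 in Pfeiffer. Without the first shEZH2 array the adjusted p was 0.0606 for NINJ2-AS1, 0.0517 for TRAM2-AS1 and 0.0723 for CHKB-DT, and without the second it was 0.0509 for TRAM2-AS1 and 0.0772 for CHKB-DT.

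Smaller rises were called in 9 further antisense genes, with differences between 0.49 and 0.80: ATP2B1-AS1, SDCBP2-AS1, NRSN2-AS1, TOB1-AS1, UBAC2-AS1, AFAP1-AS1, ZNF407-AS1, DHRS4-AS1 and KANSL1-AS1. Each of these calls was lost without the first shEZH2 array, and each was also lost without the second. AFAP1-AS1, known for high levels in carcinomas, was at 9.04 and 9.17 in KARPAS-422 shEZH2, against 8.30 and 8.60 in shNTC (0.65, adjusted p = 0.0393), with -0.10 in Pfeiffer. It was not called without the first (adjusted p = 0.139) or second shEZH2 array (0.202) or the first shNTC array (0.129). The kept probe sets of SDCBP2-AS1 did not share a sign.

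**Figure D2:**
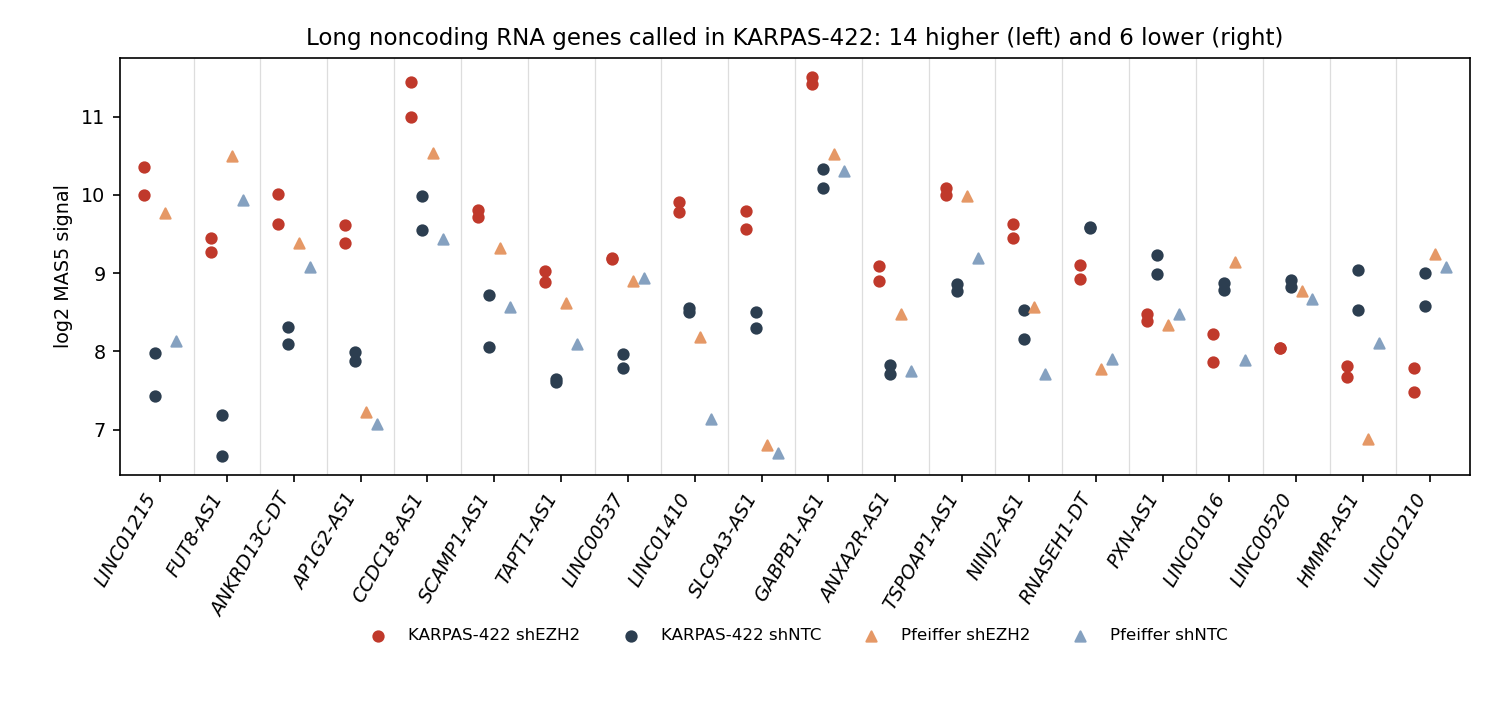
Level on each array (vertical axis, log2 MAS5 signal) of the 14 called genes with the largest positive difference in KARPAS-422 and of the 6 called lower; circles are KARPAS-422 arrays and triangles are Pfeiffer arrays, with shEZH2 left of shNTC. The KARPAS-422 arms do not overlap in any of the 20 genes, which their choice by call made likely. Of all genes tested, the arms do not overlap upward in 31.8% and downward in 33.9%. LINC01016 has its Pfeiffer shEZH2 array above its Pfeiffer shNTC array.

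The single microRNA host gene, MIR570HG, carries the hairpin of miR-570. The mature sequences from RefSeq (GRCh38.p14, plus strand, 5′ arm at chr3:195699425-195699446 and 3′ arm at chr3:195699460-195699481) are shown with the seed, bases 2 to 8, in capitals, because they are the products this host would yield; the arms have different seeds, and the array read the host transcript and not the microRNA.
hsa-miR-570-5p: aAAGGUAAuugcaguuuuuccc
hsa-miR-570-3p: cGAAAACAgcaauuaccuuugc
MIR570HG was at 9.89 and 9.99 in KARPAS-422 shEZH2, against 9.05 and 9.36 in shNTC, a difference of 0.74 ± 0.16 (SE, adjusted p = 0.0153), and at 8.53 in Pfeiffer shEZH2 and 8.12 in shNTC. The arms did not overlap in KARPAS-422, and the second kept probe set differed by 0.95. Without the first shEZH2 array the adjusted p was 0.084, and without the second it was 0.113. Of 11 microRNA processing genes tested, 3 were higher and 3 lower (median difference -0.06), where 13.1% of all genes tested were higher and 12.3% lower. AGO4, an Argonaute protein that holds microRNAs, differed by 1.30 and TNRC6B, a silencing scaffold, by 0.71; AGO2, the Argonaute with slicing activity, differed by -0.46. TNRC6B was not called without either shEZH2 array (adjusted p = 0.0705 and 0.0504), nor was AGO2 (0.082 and 0.0691).

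Of the 5 SNHG genes, 1 rose and 4 did not pass the test. SNHG33 was at 11.07 and 11.21 in KARPAS-422 shEZH2, against 10.58 and 10.38 in shNTC, a difference of 0.65 ± 0.12 (SE, adjusted p = 0.00979), with 0.54 on its second kept probe set and 0.02 in Pfeiffer. SNHG4 was at 6.88 and 6.89 in KARPAS-422 shEZH2, against 7.72 and 7.31 in shNTC, a difference of -0.63 that missed the threshold (adjusted p = 0.0554). The arms of both genes stood apart, in opposite directions. SNHG33 was not called without either shEZH2 array (adjusted p = 0.0572 without the first and 0.0827 without the second). SNHG17 (-0.11), SNHG19 (-0.24) and SNHG32 (0.27) did not pass the test.

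Of 14 small nucleolar RNP proteins tested, 0 rose and 6 fell (median difference -0.33), where 12.3% of all genes tested fell, and 18.1% of those at a mean of 8 or higher. Among them were FBL, the box C/D methyltransferase (-0.54), and RUVBL2, an assembly ATPase (-0.55). Without the second shEZH2 array 5 of the 6 were not called, RUVBL2 among them (adjusted p = 0.0547), and FBL was still called; without 1 of the other KARPAS-422 arrays 1 to 4 were not called. Many SNHG transcripts begin with a 5′ terminal oligopyrimidine tract, as ribosomal protein mRNAs do. Of 18 genes for translation proteins of this type, 0 rose and 11 fell (median -0.29), where 12.3% of all genes tested fell, and 18.1% of those at a mean of 8 or higher. EIF4B had the largest difference (-1.02) and RPL3 differed by -0.49. Under cyclic loess normalization RPS3, RPS6, RPL10A, NPM1 and TPT1 changed sign, and EIF3F and NAP1L1 did so without _x_at and _s_at probe sets. Without the second shEZH2 array 10 of the 11 were not called, RPL3 among them (adjusted p = 0.0607), and EIF4B was still called; without 1 of the other KARPAS-422 arrays 3 to 7 were not called. Many SNHG transcripts are also targets of nonsense-mediated decay. Of 7 decay factors tested, 0 rose and 2 fell, against 13.1% and 12.3% of all genes tested. The 2 were EIF4A3 (-0.43) and RBM8A (-0.58), both of the exon junction complex, RBM8A with the opposite sign on other probe sets.

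The 6 genes that fell in KARPAS-422 were 3 LINC, 2 antisense and 1 divergent. LINC01210 was at 7.49 and 7.79 in KARPAS-422 shEZH2, against 8.59 and 9.00 in shNTC, a difference of -1.16 ± 0.20 (SE, adjusted p = 0.00805), and differed by 0.17 in Pfeiffer. HMMR-AS1, named after a protein of the mitotic spindle, was at 7.81 and 7.68 in KARPAS-422 shEZH2, against 9.04 and 8.54 in shNTC (-1.04, adjusted p = 0.0155), and at 6.88 in Pfeiffer shEZH2 and 8.11 in shNTC. Both lines were lower with shEZH2 for HMMR-AS1, whereas LINC01210 had opposite signs in them. LINC00520 differed by -0.82, PXN-AS1, named after the focal adhesion protein paxillin, by -0.68, and RNASEH1-DT, named after a ribonuclease of RNA-DNA hybrids, by -0.58. Calls of all 6 were lost without the first shEZH2 array (adjusted p between 0.0561 and 0.128), those of LINC00520, HMMR-AS1, LINC01016, PXN-AS1 and RNASEH1-DT without the second (0.0691 to 0.166), and those of HMMR-AS1 (0.051) and RNASEH1-DT (0.0698) without the first shNTC array. Without the second shNTC array PXN-AS1 (0.0753) and RNASEH1-DT (0.0698) were not called.

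Over both lines, with the line as a term, 26 of the 170 genes were higher and 1 lower, or 15.3% and 0.588%, against 3.76% and 2.46% of all genes. All 27 were also called in KARPAS-422 in the same direction, and that comparison shares its 4 arrays. LINC01215 differed by 2.19 (adjusted p = 0.0142), FUT8-AS1 by 1.81 (0.0376), CCDC18-AS1 by 1.33 (0.0203) and LINC01410 by 1.22 (0.0165). The single gene that fell was HMMR-AS1 (-1.11, adjusted p = 0.0306). These counts did not hold: leaving out 1 KARPAS-422 array gave 0 or 1 higher and 0 lower, and without the intensity trend there were 0 in each direction.

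Pfeiffer alone has 1 array per arm and no test. Of the 170 genes, 7 were higher by at least 1 log2 unit (4.12%, against 3.23% of all genes) and 3 lower (1.76%, against 1.48%). At 0.5 log2 units 39 were higher (22.9%, against 11.9%) and 6 lower (3.53%, against 6.11%). Between KARPAS-422 replicates, 0 of the 170 differed by 1 log2 unit with shEZH2 (4.36% of all genes) and 1 with shNTC (0.588%, against 5.99%). At 0.5 log2 units, 8 did with shEZH2 (4.71%, against 13.5%) and 15 with shNTC (8.82%, against 16.6%). The 7 were LINC01215, LINC01016, CCDC18-AS1, LINC00528, PRR34-AS1, LINC01410 and ATP2B1-AS1, with differences between 1.04 and 1.63. The 3 lower were TOX-DT (-1.91), ITGB2-AS1 (-1.78) and HMMR-AS1 (-1.23). TOX-DT and ITGB2-AS1, and PRR34-AS1 among the 7 higher, were below the overall median on both Pfeiffer arrays, where MAS5 log2 values spread widely.

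The lines share no arrays, so their differences can be set side by side. Of the 50 genes higher in KARPAS-422, 43 were above 0 in Pfeiffer (86%), against 74.8% of all genes higher in KARPAS-422, and 22 were at 0.5 or more (44%, against 22%). Of the 6 lower, 3 were above 0 in Pfeiffer. Over the 170 genes Pearson's r between the lines was 0.423 and Spearman's rho 0.418, and over all 13036 genes they were 0.193 and 0.262. These are descriptions across genes, which are not independent, and all genes of a line share the same arrays.

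**Figure D3:**
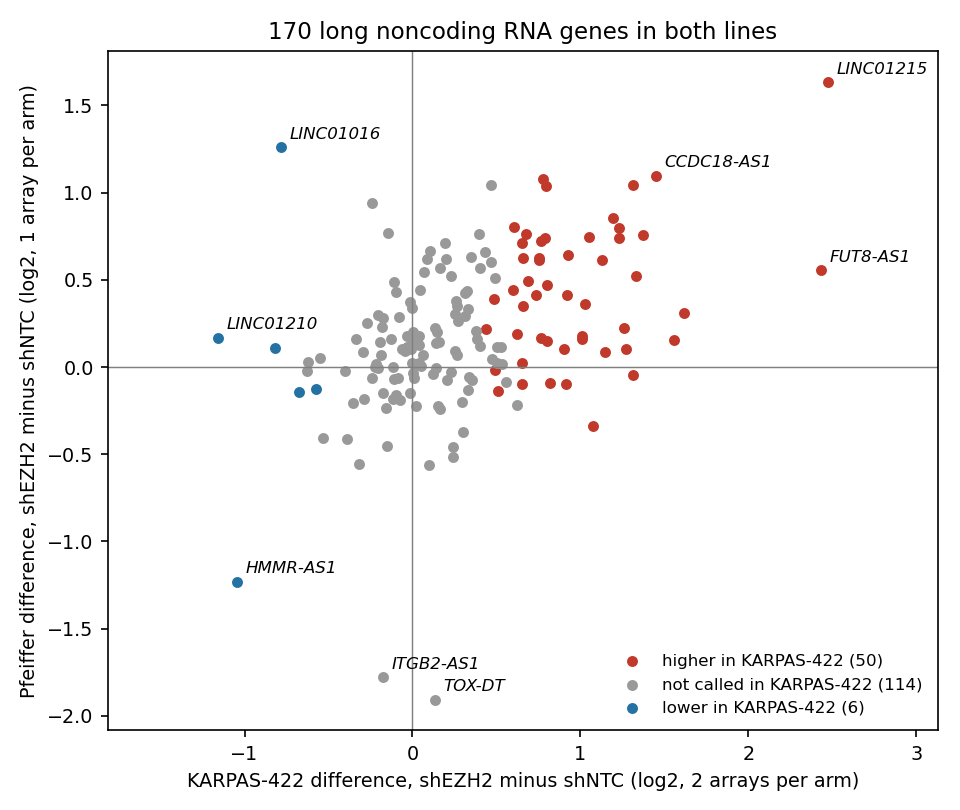
Difference in Pfeiffer (vertical axis) against difference in KARPAS-422 (horizontal axis), both shEZH2 minus shNTC in log2 units, with 1 point for each of the 170 genes and colour for the KARPAS-422 call. Of the 50 genes higher in KARPAS-422, 43 lie above 0 in Pfeiffer, and LINC01215 is the farthest point in both directions of increase.

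The difference between the lines' responses was called for 2 of the 170 genes (1.18%, against 1.7% of all genes). LINC01016 was at 8.23 and 7.87 in KARPAS-422 shEZH2, against 8.79 and 8.87 in shNTC, a difference of -0.78, and at 9.15 in Pfeiffer shEZH2 and 7.89 in shNTC, a difference of 1.26. The KARPAS-422 response minus the Pfeiffer response was -2.04 (adjusted p = 0.0272). TOX-DT, which starts beside the gene of the lymphoid transcription factor TOX, was at 11.30 and 11.46 in KARPAS-422 shEZH2, against 11.27 and 11.21 in shNTC, and at 3.59 in Pfeiffer shEZH2 and 5.50 in shNTC. Its response differed by 2.04 (adjusted p = 0.0124), most of it from the dim Pfeiffer arrays. Neither was called without the first shEZH2 array (adjusted p = 0.150 for each) or without the second (0.163 for LINC01016 and 0.149 for TOX-DT).

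The 122 antisense and divergent genes can be set beside the coding gene whose name they carry. In 105 pairs the coding gene was measured. In KARPAS-422 both genes were called in 17 pairs, the noncoding gene alone in 16, the coding gene alone in 21 and neither in 51. For comparison, 13.1% of all genes tested rose in KARPAS-422 and 12.3% fell. Among the 8273 genes with a mean of 8 or higher, the genes described here left out, 15% rose and 18.1% fell. Whether paired genes share calls more often than other genes was not tested. Over the 105 pairs Pearson's r of the differences was 0.201 and Spearman's rho 0.156. In the 85 pairs with RefSeq starts on 1 chromosome, the median distance between starts was 1002.5 bases for 62 antisense pairs and 169 for 23 divergent pairs, with 31 and 22 within 1000 bases.

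Both genes rose in 8 pairs. TAPT1-AS1 was at 8.89 and 9.03 in KARPAS-422 shEZH2, against 7.61 and 7.64 in shNTC (1.33, adjusted p = 0.0026), and TAPT1, a transmembrane protein gene, differed by 1.05 (adjusted p = 0.00244). CARD8-AS1 was at 10.65 and 10.80 in KARPAS-422 shEZH2, against 10.03 and 9.89 in shNTC (0.77, adjusted p = 0.00533), and CARD8, an inflammasome sensor, differed by 0.96 (adjusted p = 0.0026). The arms stood apart in both, although CARD8-AS1 was not called without the second shEZH2 array (adjusted p = 0.0564). The other pairs were FUT8, ANXA2R, an annexin A2 receptor (0.87, adjusted p = 0.0184), CHKB, a choline kinase (0.52, adjusted p = 0.0482), MAP3K2, a stress kinase (0.37, adjusted p = 0.0338), RFX5, which activates MHC class II genes (0.60, adjusted p = 0.0107), and ZBED5 (0.63, adjusted p = 0.00687), each with its noncoding neighbour. Both genes fell in 2 pairs, HMMR (-0.43, adjusted p = 0.00997) and RNASEH1 (-0.41, adjusted p = 0.0137).

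In 7 pairs the noncoding gene rose while the coding gene fell. GAS6-AS1 was at 9.90 and 9.69 in KARPAS-422 shEZH2, against 9.03 and 8.75 in shNTC (0.90, adjusted p = 0.0116), and GAS6, a ligand of TAM receptors, differed by -0.73 (adjusted p = 0.0314). DPH5-DT was at 9.51 and 9.82 in KARPAS-422 shEZH2, against 8.57 and 8.90 in shNTC (0.93, adjusted p = 0.0103), and DPH5, a diphthamide synthesis enzyme, differed by -0.60 (adjusted p = 0.0133). The other 5 coding genes were PCBP1, an RNA-binding protein (-0.47, adjusted p = 0.00577), WARS2, the mitochondrial tryptophan tRNA synthetase (-0.53, adjusted p = 0.0366), COX10, of heme A synthesis (-0.37, adjusted p = 0.0477), and the proteasome subunits PSMB8 (-0.29, adjusted p = 0.0404) and PSMA3 (-0.22, adjusted p = 0.0451). The sign of PSMA3, COX10, WARS2 and, among the pairs that fell, RNASEH1 turned under at least 1 alternative choice of probe sets, so those pairs depend on it. Of the 17 coding genes in pairs with both called, 13 were not called when at least 1 KARPAS-422 array was left out, with FUT8, TAPT1, CARD8 and PCBP1 the exceptions. GAS6-AS1 was not called without the first or second shEZH2 array (differences of 0.80 and 1.01), and DPH5-DT not without the second (0.77). PCBP1-AS1 was not called with any KARPAS-422 array left out, with differences between 0.40 and 0.58. COX10-DT was not called without the first or second shEZH2 array (0.92 each), nor was WARS2-AS1 (0.53 and 0.72). Each of these opposite pairs thus lost at least 1 of its calls with an array left out.

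**Figure D4:**
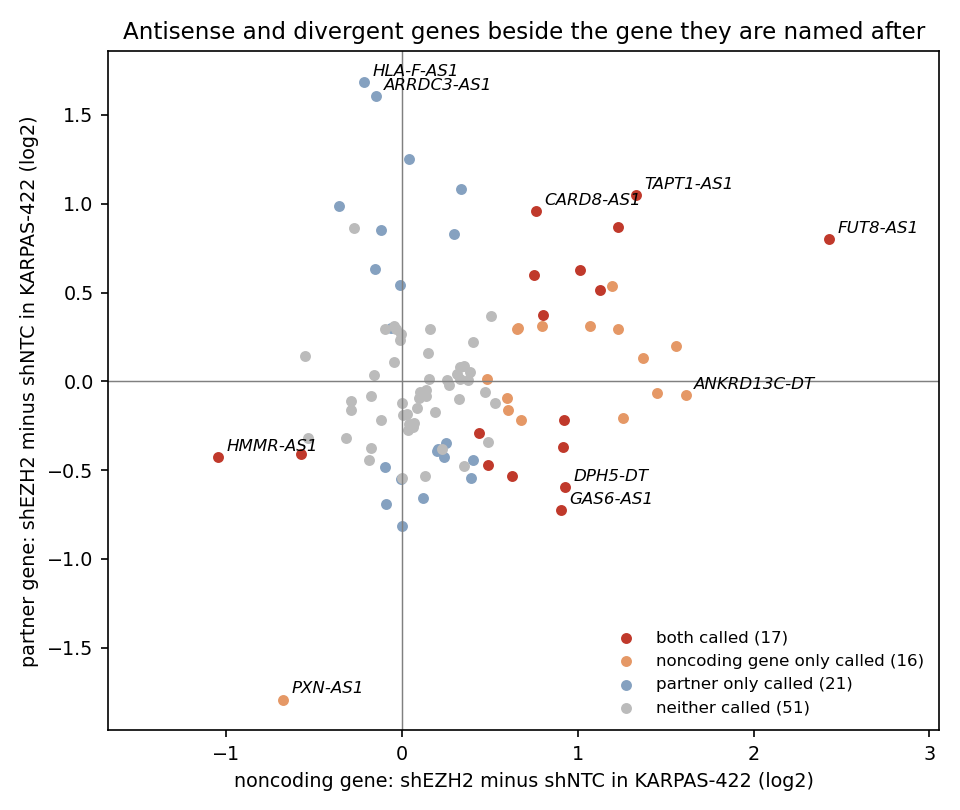
KARPAS-422 difference of the coding gene (vertical axis) against that of the antisense or divergent gene named after it (horizontal axis), both shEZH2 minus shNTC in log2 units, for the 105 pairs in which both were measured. Of the 17 pairs with both called, 8 lie in the upper right, 2 in the lower left and 7 in the lower right.

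In the 21 pairs where the coding gene alone was called, the largest coding differences were those of HLA-F and ARRDC3. HLA-F, a nonclassical MHC class I gene, differed by 1.68 (adjusted p = 0.000145) and HLA-F-AS1 by -0.21 (adjusted p = 0.451). ARRDC3, an arrestin-domain gene, differed by 1.61 (adjusted p = 0.00367) and ARRDC3-AS1 by -0.15 (adjusted p = 0.577). ARRDC3 was not called without the second shEZH2 array (adjusted p = 0.0568).

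ANXA2R-AS1 and PSMB8-AS1 were the 2 genes of the 137 whose promoter held the core of the interferon-stimulated response element, searched as GAAANNGAAA and its reverse complement TTTCNNTTTC. That is 1.46%, against 2.85% of tested genes and 3.65% of all 27305 promoters. The promoters (GRCh38.p14, ANXA2R-AS1 at chr5:43041884-43042183, plus strand, and PSMB8-AS1 at chr6:32843836-32844135, plus strand) are shown with the match in capitals, because both genes were among the 34 with a promoter that rose in KARPAS-422; a match is a description and not a binding site. The match starts 125 bases before the start of ANXA2R-AS1 and 44 bases before that of PSMB8-AS1.
ANXA2R-AS1: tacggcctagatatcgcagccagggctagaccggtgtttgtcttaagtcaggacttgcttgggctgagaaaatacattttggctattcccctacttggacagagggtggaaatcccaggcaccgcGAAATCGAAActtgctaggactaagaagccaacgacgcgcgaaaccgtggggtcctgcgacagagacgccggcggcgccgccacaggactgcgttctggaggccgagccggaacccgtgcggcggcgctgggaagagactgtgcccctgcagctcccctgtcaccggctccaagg
PSMB8-AS1: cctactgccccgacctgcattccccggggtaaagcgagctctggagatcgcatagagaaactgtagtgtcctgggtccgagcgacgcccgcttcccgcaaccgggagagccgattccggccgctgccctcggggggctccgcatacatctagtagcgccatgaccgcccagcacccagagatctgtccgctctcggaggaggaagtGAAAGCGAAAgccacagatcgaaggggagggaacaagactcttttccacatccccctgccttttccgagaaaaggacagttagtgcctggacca
ANXA2R-AS1 was at 9.10 and 8.90 in KARPAS-422 shEZH2, against 7.71 and 7.83 in shNTC, a difference of 1.23 ± 0.17 (SE, adjusted p = 0.00385), and PSMB8-AS1, named after an immunoproteasome subunit, was at 11.16 and 11.19 in KARPAS-422 shEZH2, against 10.84 and 10.64 in shNTC (0.44, adjusted p = 0.0289). Neither pair of arms overlapped. Without the first shEZH2 array neither was called (adjusted p = 0.0521 for ANXA2R-AS1 and 0.122 for PSMB8-AS1), and PSMB8-AS1 was not called without the second (0.135) or the second shNTC array (0.114). The E-box CACGTG, a palindrome, was in 6 of the 137 promoters (4.38%, against 10.1% of tested genes).

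Between lines, with the hairpin as a term and 4 KARPAS-422 arrays against 2 of Pfeiffer, 51 genes were higher in KARPAS-422 (30%, against 23.5% of all genes) and 35 lower (20.6%, against 26.7%). The rule that chose the genes used a mean in which KARPAS-422 has 4 of 6 arrays, so these shares are a description: with all tested genes held to a mean of at least 8, 30.6% of the 170 were higher, against 31% of all such genes, and 20.6% lower, against 24.8%. Differences of at least 1 log2 unit were called upward in 29 (17.1%, against 11.1% of all genes) and downward in 11 (6.47%, against 15.3%). These all-gene shares were not held to a mean of at least 8, so the contrast is also a description that the choice of genes bears on. With each array centred on its median, 76 were higher (44.7%, against 33.8% of all genes) and 28 lower (16.5%, against 20%). The median line difference of all genes then moved to 0.18, against -0.05 as deposited. ITGB2-AS1, named after the beta chain of leukocyte integrins, was at 10.99 and 11.19 in KARPAS-422 shEZH2, against 11.48 and 11.05 in shNTC, and at 2.89 in Pfeiffer shEZH2 and 4.67 in shNTC. LINC01095 was at 10.87 and 11.02 in KARPAS-422 shEZH2, against 10.46 and 9.87 in shNTC, and at 4.16 in Pfeiffer shEZH2 and 3.42 in shNTC. PRR34-AS1 was at 11.11 and 11.17 in KARPAS-422 shEZH2, against 10.63 and 10.70 in shNTC, and at 5.12 in Pfeiffer shEZH2 and 4.07 in shNTC. All 4 KARPAS-422 arrays were bright in each, while both Pfeiffer arrays were below the overall median, so these genes reached the mean of 8 through KARPAS-422.

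TOX-DT had the same pattern. As a description with no test, the fitted KARPAS-422 minus Pfeiffer differences of ITGB2-AS1, LINC01095, TOX-DT and PRR34-AS1 lay between 6.30 and 7.40, and their size and order are uncertain because the Pfeiffer values are in the dim range. LINC00487 (3.27) and NUTM2B-AS1 (2.36) followed. The coding genes ITGB2 (5.58) and TOX (7.59) were higher in KARPAS-422 as well.

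Toward Pfeiffer, LINC01857 was at 6.29 and 5.84 in KARPAS-422 shEZH2, against 5.38 and 5.14 in shNTC, and at 13.50 in Pfeiffer shEZH2 and 13.03 in shNTC. LINC02901 was at 6.35 and 6.15 in KARPAS-422 shEZH2, against 5.88 and 6.51 in shNTC, and at 11.99 in Pfeiffer shEZH2 and 11.98 in shNTC. Both reached the mean of 8 through the 2 Pfeiffer arrays. Their fitted differences of -7.60 and -5.76 are descriptions of uncertain size, since the KARPAS-422 values lie near or below the overall median. SNHG4, a host of SNORA74 small nucleolar RNAs, was at 10.25 in Pfeiffer shEZH2 and 10.27 in shNTC and differed by -3.06, with ATP2B1-AS1 (-2.17), C2orf74-DT (-2.16) and FUT8-AS1 (-2.07) next. Every KARPAS-422 array of SNHG4 and ATP2B1-AS1 was under 8. Both therefore reached that mean through Pfeiffer as well, and their differences are descriptions. ATP2B1, a plasma membrane calcium pump, and FUT8 were also lower in KARPAS-422 (-3.49 and -1.92). Of the other SNHG genes, SNHG33 (1.48) and SNHG17 (0.55), a host of SNORA71 small nucleolar RNAs, were higher in KARPAS-422, and SNHG32 (-0.85) and SNHG19 (-0.61) lower.

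**Figure D5:**
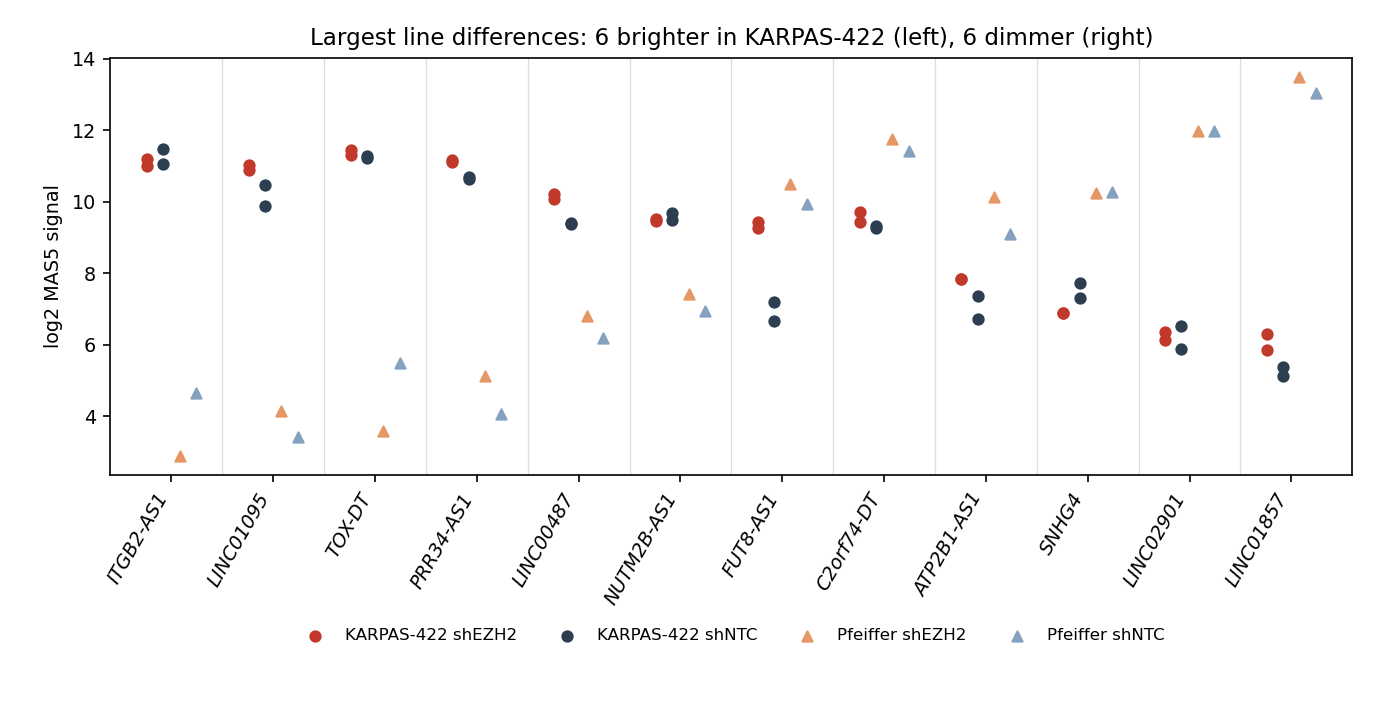
Level on each array (vertical axis, log2 MAS5 signal) of the 6 genes with the largest called difference toward KARPAS-422 and the 6 toward Pfeiffer; circles are KARPAS-422 arrays and triangles are Pfeiffer arrays, with shEZH2 left of shNTC. In each of the 12 genes the KARPAS-422 arrays and the Pfeiffer arrays do not overlap. The genes were chosen by the size of this difference, so the separation follows from the choice.

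Of the 8 genes with the highest means, 1 was called in KARPAS-422. OIP5-AS1, known as cyrano and as a binder of miR-7, was at 12.14 and 12.29 in KARPAS-422 shEZH2, against 12.20 and 12.40 in shNTC, and at 11.98 in Pfeiffer shEZH2 and 12.04 in shNTC. SNHG19 was at 11.60 and 11.47 in KARPAS-422 shEZH2, against 11.64 and 11.91 in shNTC, and SNHG32 at 11.74 and 11.60 in KARPAS-422 shEZH2, against 11.66 and 11.14 in shNTC. The arms overlapped in OIP5-AS1 and SNHG32 and not in SNHG19. AFTPH-DT, beside the gene of the trafficking protein aftiphilin, was the one called, at 12.04 and 12.10 in KARPAS-422 shEZH2, against 11.51 and 11.43 in shNTC (0.60, adjusted p = 0.00447), with 0.80 in Pfeiffer. The others were EPB41L4A-AS1, a small nucleolar RNA host (0.15), MAPKAPK5-AS1 (0.04), WAC-AS1 (0.14) and LINC00621 (-0.20).

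Other known long noncoding RNA genes do not have such names. Of 30 listed, 19 were tested, 7 were higher in KARPAS-422 and 3 lower, with a median difference of 0.10. Of all genes tested, 13.1% were higher and 12.3% lower. HCP5, in the MHC class I region, was at 11.22 and 11.35 in KARPAS-422 shEZH2, against 7.69 and 7.95 in shNTC (3.47, adjusted p = 4.01e-05). MALAT1, a nuclear RNA, was at 12.75 and 12.36 in KARPAS-422 shEZH2, against 10.96 and 10.72 in shNTC (1.71, adjusted p = 0.000673), with 1.40 in Pfeiffer. The arms stood apart in both. TUG1 (0.63) and NORAD, a binder of PUMILIO proteins (0.42), were higher too, and DLEU1 (-1.16), PCAT6 (-1.48) and DANCR (-0.62) lower. NORAD was not called without the first (adjusted p = 0.0698) or second shEZH2 array (0.0506), nor PCAT6 without the first shEZH2 (0.135), the first shNTC (0.0511) or the second shNTC array (0.0677).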

How the data were processed

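Groups came from the sample titles, and the comparisons from the design text. The authors deposited 1 table of log2 MAS5 signals for 54675 probe sets, per the submitters' processing notes, without a version; the log base was read from the values, whose linear trimmed means are equal. MAS5 scales each array alone and spreads dim signals widely. Scan dates and detection calls were not used here. Of the probe sets, 41091 have 1 gene symbol, 1801 several and 62 are controls, and only the first were used; 41037 matched a RefSeq gene ID.

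Probe sets with at least 2 arrays above the overall median (6.205) were kept, and the brightest stood for its gene, which gave 13036 genes. The 170 genes, the gene lists and the naming rules were chosen with earlier results of these data known. Every member could be named; values on each array are given mainly for the largest differences, the highest levels and the called lines. limma 3.58.1 in R 4.3.3 was used (lmFit, eBayes with an intensity trend, two-sided, Benjamini-Hochberg over all genes). The KARPAS-422 difference and the interaction with line were fitted as 4 groups (2 residual and 5.24 prior degrees of freedom), and both lines and the line difference with line and hairpin as terms (3 and 4.72). Pfeiffer alone was not tested. Scripts were tested on simulated data. Same-numbered KARPAS-422 arrays did not deviate together (r = 0.00651, 2 pairs). The alternatives were other normalizations, no trend, other filters, 16 or 64 added to linear values, other probe set choices, a replicate block, KARPAS-422 alone and each array left out. Probe sets ending in _x_at or _s_at, which can read similar transcripts, stand for 29 of the genes. The number of arrays limits the precision. RefSeq sequences are of GRCh38.p14, and 137 genes matched a promoter. A withheld item is not reported here.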

Additional observations from a re-analysis of the deposited data

Results flagged for a closer look

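The response of 2 genes differed between the lines by the test of the difference itself. For TOX-DT, the KARPAS-422 minus Pfeiffer response was 2.04 (limma, adjusted p = 0.0124), with 0.14 in KARPAS-422 and -1.91 in Pfeiffer, where both arrays were below the overall median. With 64 added to the linear values it was 0.65 (adjusted p = 0.176). For LINC01016 it was -2.04 (limma, adjusted p = 0.0272), with -0.78 in KARPAS-422 and 1.26 in Pfeiffer. Without a filter on dim probe sets its adjusted p was 0.0661. Pfeiffer has 1 array per arm, which the test takes to vary like KARPAS-422.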

How the results depend on the processing

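The KARPAS-422 counts of 50 higher and 6 lower became 36 and 10 with quantile normalization, 41 and 8 with median centring, 38 and 8 with cyclic loess, 39 and 5 with no filter, and 18 and 1 without the intensity trend. Leaving out 1 KARPAS-422 array gave 18 to 47 higher and 0 to 9 lower. Over both lines, 26 higher and 1 lower became 0 and 0 without the trend and 12 higher with no filter, and leaving out 1 array gave 0 to 50 higher and 0 to 6 lower, the upper ends being KARPAS-422 alone once a Pfeiffer array is left out. The replicate block gave 51 higher and 7 lower in KARPAS-422, but 2 and 0 over both lines and 7 calls of the difference between lines; the numbers are not known to pair the arrays. That difference had 2 calls, 0 without the trend, 1 with no filter, 1 with 16 or 64 added, 10 with a gene mean of at least 8, and 0 to 11 with 1 array left out. Pfeiffer counts at 1 log2 unit, 7 higher and 3 lower, became 2 higher with median centring, which moved the all-gene median to -0.09, against 0.03 as deposited, and 3 and 0 with 64 added. The cause of these changes was not tested, apart from fewer arrays in the fits that leave one out.

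No sign turned among the 170 genes' called KARPAS-422 differences under the alternatives run. Coding genes called lower turned to a positive difference in some settings: PSMA3 0.020 with quantile normalization; TPT1 0.023, NPM1 0.018, RPS3 0.058, RPS6 0.037, RPL10A 0.061, PSMA3 0.070 with cyclic loess normalization; RBM8A 0.30, EIF3F 0.33, PSMA3 0.14 with the mean of kept probe sets; RBM8A 0.49, TARBP2 0.12, PRKRA 0.22, EIF3F 0.95, NAP1L1 0.76, COX10 0.22, RNASEH1 0.045, WARS2 0.029 without _x_at and _s_at probe sets. The mean of probe sets and the choice of probe sets read other probes of the gene; for the normalizations the cause was not tested.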
